A study of Mus musculus with 6 samples.

Results

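The 34 genes described here encode enzymes, regulators and transporters of branched-chain amino acid breakdown, of the propionate and cobalamin steps that follow it, and of ketone body metabolism. They were chosen by gene symbol for their known place in these pathways, and each symbol matched 1 of the 55487 gene identifiers in the tables. RNA was sequenced from livers of 8-week-old male mice in 2 groups of 3. WT animals belonged to the inbred substrain BALB_cJ. SCADD animals belonged to BALB_cBYJ, a substrain deficient in the product of Acads, short-chain acyl-CoA dehydrogenase, which starts oxidation of short-chain acyl-CoAs in mitochondria. Both groups ate standard chow under the same light cycle, and the series design calls the 3 animals of a group biological replicates. Genotype and substrain coincide in every animal, so the effect of the deficiency and that of other substrain variants cannot be told apart.

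Leucine, isoleucine and valine are first transaminated, then decarboxylated by the branched-chain ketoacid dehydrogenase complex, which a dedicated kinase switches off and a phosphatase switches on. Leucine carbon ends as acetyl-CoA and acetoacetate, whereas valine and part of isoleucine pass through propionyl-CoA and methylmalonyl-CoA to succinyl-CoA, a route that needs biotin and a cobalamin cofactor. Liver is poor in the first transaminase step but rich in the later enzymes, and it makes ketone bodies for other organs while keeping little of the enzyme that would use them.

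Reads counted in genes ranged from 23991104 to 27148756 in WT and from 16948986 to 23912744 in SCADD libraries. Unmapped reads made up 14.5% ± 1.58 of WT and 29.7% ± 6.12 of SCADD reads (SD, n = 3 each), and an exact two-sided permutation test gave p = 0.1, the smallest that 3 against 3 allows. The highest share, 36.6%, was in SCADD replicate 3. Levels between groups are given as CPM, each gene's read count scaled to the library total, after TMM scaling. By this measure Acads, on chromosome 5, stood at 185, 166 and 196 CPM in WT and at 99.3, 104 and 96.96 CPM in SCADD replicates 1 to 3, so the groups did not overlap. Hepatocyte markers (10 genes, Alb and Cps1 among them) summed to between 104690 and 165000 CPM in every library. Most of this sum was Alb, at 79586 to 135290 CPM. Of these 10, Cps1 was the 1 that passed the threshold used below, and it fell. The groups did not overlap in 4 of the 10, or 40.0%, against 28.0% of all tested genes.

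Of the 34 genes, 33 had enough reads to be tested, and 3 differed between SCADD and WT livers at an edgeR quasi-likelihood adjusted p under 0.05. Mmadhc, which routes cobalamin to its cofactor forms, rose 1.497-fold. Mut, the methylmalonyl-CoA mutase that uses one of those forms, fell to 0.631 of the WT level, and Oxct1, the enzyme that commits ketone bodies to use as fuel, fell to 0.445. The 3 genes were 9.09% of the 33, against 7.02% of all 13498 tested genes. By direction, 1 of 33 rose and 2 of 33 fell, against 4.22% and 2.80% of all tested genes. In whole liver, fewer cells of a type and less RNA per cell cannot be told apart for these or any other differences below.

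The median log2 fold change of the 33 was -0.05, against -0.00 over all tested genes, with 16 positive and 17 negative. A log2 fold change within 0.3 of zero was found for 23 of 33 genes, or 69.7%, against 59.6% of all tested genes. The 3 WT and the 3 SCADD values did not overlap in 7 of 33 genes, or 21.2%, against 28.0% of all tested genes. These were Bckdha, Mut, Mmadhc, Suclg1, Bdh1, Oxct1 and Slc16a1. An unadjusted p under 0.05 was reached by 8 of 33 genes, or 24.2%, against 22.7% of all. DESeq2 called 5 genes, adding Bckdha (lower, adjusted p = 0.0307) and Aacs (higher, adjusted p = 0.0429), against 9.56% of all genes it tested. Under upper-quartile scaling the split of all calls moved from 569 higher and 378 lower to 470 higher and 482 lower, while the calls among the members stayed at 1 higher and 2 lower.

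**Figure D1:**
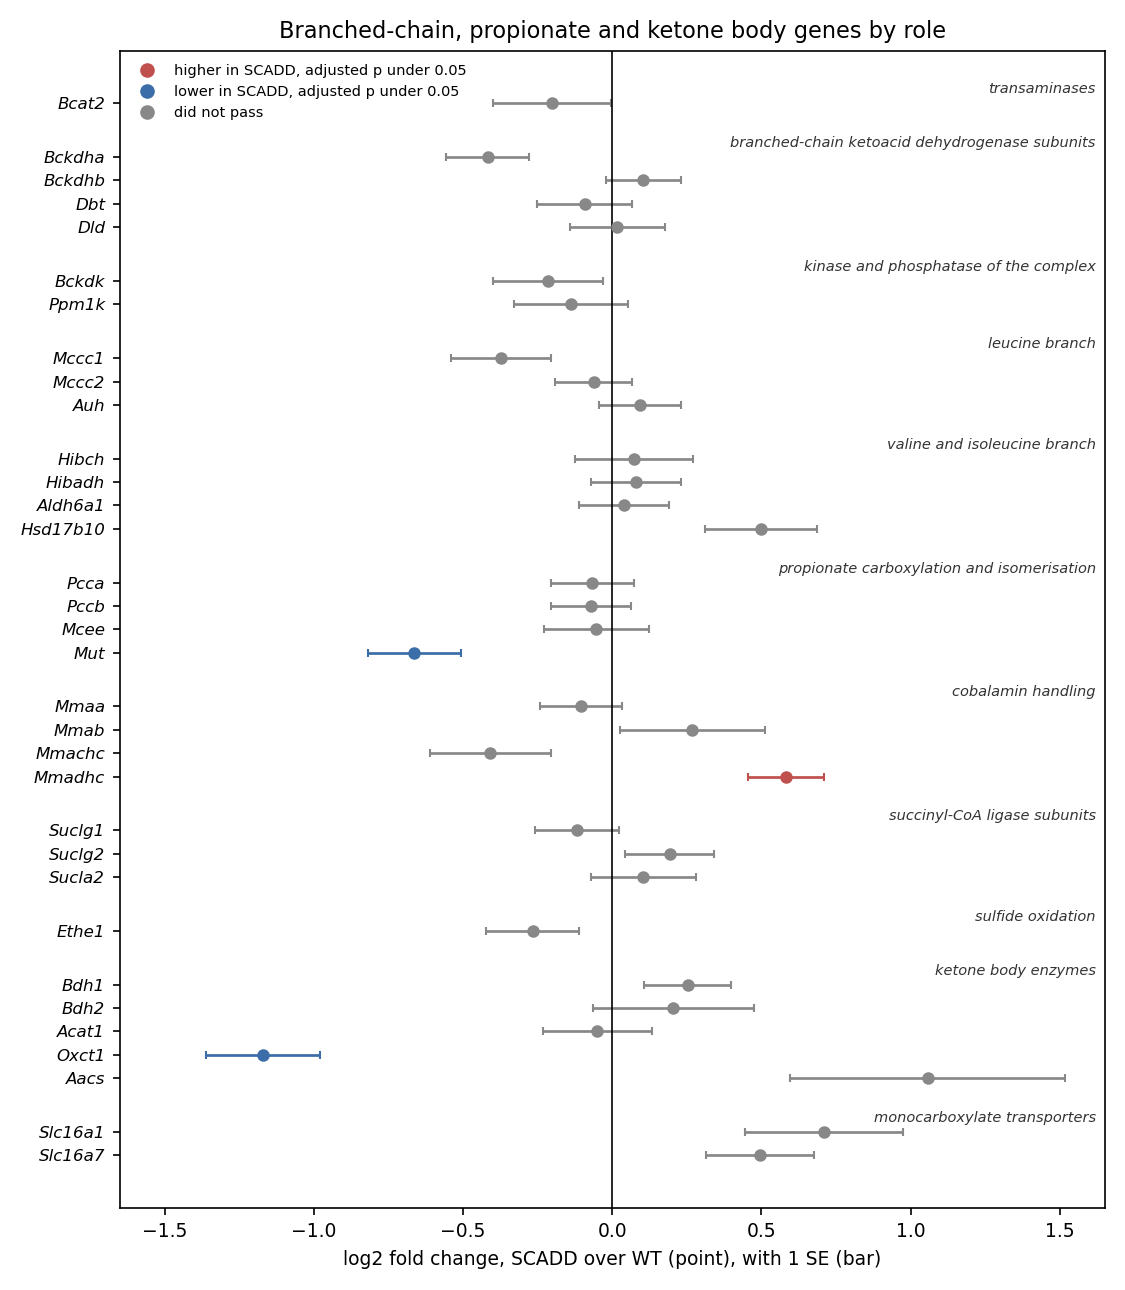
Log2 fold change of each tested gene, SCADD over WT (points, horizontal axis), with 1 standard error (bars), grouped by step of the pathway; colour marks an edgeR adjusted p under 0.05. Mut and Oxct1 lie to the left at -0.66 and -1.17, Mmadhc to the right at 0.58, and the widest bar belongs to Aacs.

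The first step is a reversible transamination. Bcat1, the cytosolic transaminase, was not tested, with 0 or 1 read in each library. Bcat2, the mitochondrial form, stood at 9.55, 6.78 and 11.4 CPM in WT and 7.34, 8.87 and 7.94 CPM in SCADD. The SCADD values lay inside the WT range, and the log2 fold change was -0.20 (edgeR adjusted p = 0.600, SE 0.20). Most reads over this locus ran the other way. Of the stranded reads in Bcat2, 79.8% came from the opposite strand, where the gene 0610005C13Rik overlaps it, and the counts used here hold the sense reads alone. Pcca, with Ggact on the other strand, had 11.0% such reads, and no other member exceeded 0.394%.

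The dehydrogenase complex takes the ketoacids to acyl-CoAs, and no subunit passed the edgeR test. Bckdha, the alpha subunit of its decarboxylase, had the lowest p of the 4. It stood at 264, 250.5 and 287 CPM in WT and at 189.5, 210.2 and 200.1 CPM in SCADD, and the groups did not overlap. WT livers averaged 267 ± 18.6 CPM and SCADD livers 199.9 ± 10.3 CPM (n = 3 each, SD), giving a log2 fold change of -0.42 (edgeR adjusted p = 0.0987, SE 0.14). Bckdhb, the beta subunit that pairs with it, was at 48.8 ± 1.45 CPM in WT and 52.4 ± 5.27 CPM in SCADD (SD, n = 3 each). Dbt, the acyltransferase core, and Dld, the dehydrogenase shared with the pyruvate and oxoglutarate complexes, had log2 fold changes of -0.09 and 0.02.

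Bckdk, the kinase that inactivates the complex, was at 11.0, 9.09 and 7.55 CPM in WT and 8.44, 8.68 and 6.64 CPM in SCADD. Ppm1k, the phosphatase that reactivates it, was at 166, 99.98 and 104 CPM in WT and 112, 114 and 111 CPM in SCADD. Both genes overlapped between groups, and in Ppm1k the WT replicate 1 value stood above the other 5. Their log2 fold changes were -0.22 and -0.14 (SE 0.18 and 0.19, edgeR adjusted p = 0.538 and 0.726).

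In the leucine branch, Mccc1 and Mccc2 encode the biotin-bearing and the carboxyltransferase subunit of methylcrotonyl-CoA carboxylase, and Auh the hydratase after it. Mccc1 stood at 62.7, 79.8 and 70.9 CPM in WT and at 54.9, 66.1 and 43.5 CPM in SCADD. SCADD replicate 2 lay within the WT range and the other SCADD values below it, with a log2 fold change of -0.37 (edgeR adjusted p = 0.218, SE 0.17). Mccc2 stood at 65.7, 67.5 and 66.0 CPM in WT and at 67.4, 68.1 and 55.0 CPM in SCADD, a log2 fold change of -0.06 (edgeR adjusted p = 0.827, SE 0.13). Both subunits were lowest in SCADD replicate 3. Auh had a log2 fold change of 0.09.

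For valine and isoleucine, Hibch, Hibadh and Aldh6a1 carry out the hydrolase and dehydrogenase steps of the valine route. Their log2 fold changes lay between 0.04 and 0.08, each smaller than its standard error. Hsd17b10, a dehydrogenase of the isoleucine route that is also a subunit of the mitochondrial ribonuclease P, was at 139, 147 and 172 CPM in WT. In SCADD it was at 252, 158 and 237 CPM. SCADD replicates 1 and 3 lay above all WT libraries and replicate 2 among them. The log2 fold change was 0.50 (edgeR adjusted p = 0.146, SE 0.19), and without SCADD replicate 2 it was 0.67 (edgeR adjusted p = 0.0233).

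Propionyl-CoA is carboxylated by Pcca and Pccb, epimerised by Mcee and rearranged to succinyl-CoA by Mut. The first 3 genes gave log2 fold changes of -0.05 to -0.07. Mcee, which had the highest TPM of the 4, stood at 81.3, 91.6 and 97.4 CPM in WT and at 76.5, 72.4 and 112 CPM in SCADD, with SCADD values on both sides of the WT range. Mut (ENSMUSG00000023921, chromosome 17, 40934685 to 40961988, GRCm38) stood at 363, 419.8 and 389.8 CPM in WT and at 279.8, 248 and 213 CPM in SCADD. All SCADD values lay below all WT values. WT livers averaged 391 ± 28.3 CPM and SCADD livers 247 ± 33.6 CPM (n = 3 each, SD), giving a log2 fold change of -0.66 (edgeR adjusted p = 0.0302, SE 0.16, DESeq2 adjusted p = 0.000811). The edgeR call was lost without WT replicate 1, 2 or 3 or without SCADD replicate 1 (edgeR adjusted p = 0.0551, 0.138, 0.102 and 0.0534). Mut was the only one of these 4 genes called.

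The next 4 proteins of the list prepare cobalamin for the mutase. Mmachc trims the incoming cobalamin, Mmadhc hands it on, Mmab attaches the adenosyl group, and Mmaa loads and protects the mutase. Mmadhc (ENSMUSG00000026766, chromosome 2, 50279881 to 50296801, GRCm38) stood at 71.7, 74.7 and 66.4 CPM in WT and at 109.5, 97.0 and 112 CPM in SCADD. Every SCADD value was above every WT value. WT livers averaged 70.9 ± 4.21 CPM and SCADD livers 106 ± 8.08 CPM (n = 3 each, SD), giving a log2 fold change of 0.58 (edgeR adjusted p = 0.0224, SE 0.13, DESeq2 adjusted p = 0.00188). The edgeR call was lost without WT replicate 1, 2 or 3 or SCADD replicate 1 (edgeR adjusted p = 0.0719, 0.0794, 0.112 and 0.110). The other genes had fewer reads. Mmaa, Mmab and Mmachc had log2 fold changes of -0.10, 0.27 and -0.41, with edgeR adjusted p of 0.711, 0.570 and 0.268, and their groups overlapped. The enzyme gene Mut and the cofactor-handling gene Mmadhc thus had log2 fold changes of opposite sign.

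Succinyl-CoA ligase, the citric acid cycle enzyme that takes up the product, has a shared subunit, Suclg1, and alternative subunits for GTP (Suclg2) and ATP (Sucla2). Suclg1 stood at 313, 325 and 309 CPM in WT and at 306, 305 and 262 CPM in SCADD. All SCADD values lay below the WT values, by little in 2 libraries, with a log2 fold change of -0.12 (edgeR adjusted p = 0.678, SE 0.14). Suclg2 stood at 147, 149 and 149 CPM in WT and at 165, 198 and 146 CPM in SCADD, spread to both sides of the narrow WT range. Its log2 fold change was 0.19 (edgeR adjusted p = 0.494, SE 0.15), and that of Sucla2 was 0.10. Ethe1, the mitochondrial persulfide dioxygenase of sulfide oxidation, stood at 39.0, 47.6 and 34.7 CPM in WT and at 30.1, 39.1 and 31.6 CPM in SCADD. These ranges overlapped (log2 fold change -0.27, edgeR adjusted p = 0.353, SE 0.16).

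The ketone body enzymes divide into those near synthesis, those of use and a cytosolic salvage enzyme. Acat1, the mitochondrial thiolase that makes and splits acetoacetyl-CoA, stood at 1784, 1885 and 1973 CPM in WT and at 1946, 1460.0 and 2043 CPM in SCADD. SCADD values lay on both sides of the WT range (log2 fold change -0.05, edgeR adjusted p = 0.913, SE 0.18). Bdh1, which interconverts acetoacetate and 3-hydroxybutyrate in mitochondria, stood at 425, 412 and 425 CPM in WT and at 479.7, 545 and 478 CPM in SCADD. The groups did not overlap, but the log2 fold change of 0.25 (SE 0.14) did not pass (edgeR adjusted p = 0.340). Bdh2, a cytosolic relative, was under 11 CPM throughout, with a log2 fold change of 0.20.

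Oxct1 (ENSMUSG00000022186, chromosome 15, 4026383 to 4155344, GRCm38) encodes the succinyl-CoA transferase that tissues outside the liver need to burn ketone bodies. It had 233, 149 and 181 reads in WT and 74, 62 and 61 reads in SCADD libraries, which is 8.43, 6.51 and 6.79 CPM against 3.02, 2.93 and 3.78 CPM. The SCADD values were all far below the WT values. WT livers averaged 7.25 ± 1.03 CPM and SCADD livers 3.24 ± 0.471 CPM (n = 3 each, SD), giving a log2 fold change of -1.17 (edgeR adjusted p = 0.00562, SE 0.19). Among the members this was the largest fall, and it was called under all 15 alternatives tried, with adjusted p between 6.94e-06 and 0.0260.

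Summed markers of other cell types are given beside this result. A list of 6 muscle and fat markers summed to 5.50 CPM in WT replicate 1 and to 0.3003 to 0.775 CPM in the other 5 libraries. The fat gene Adipoq supplied 4.67 CPM of that sum. Without WT replicate 1 the Oxct1 log2 fold change was -1.06 (edgeR adjusted p = 0.0180). Markers of sinusoidal endothelium (7 genes) summed to 229 to 263 CPM in WT and 143 to 227 CPM in SCADD, without overlap. Of the 7, 6 had a negative log2 fold change. An unadjusted edgeR p under 0.05 was reached by 4, or 57.1%, against 22.7% of all tested genes. The groups did not overlap in 3, or 42.9%, against 28.0%. Lyve1 alone was called, or 14.3% against 7.02%, and it fell (log2 fold change -1.40, edgeR adjusted p = 0.0152). Cholangiocyte markers (6 genes) summed to 44.7 to 52.1 CPM in WT and 28.9 to 41.1 CPM in SCADD, also without overlap. Most of this sum was Spp1, with a mean of 45.0 CPM in WT and 32.9 CPM in SCADD. The other 5 genes averaged under 1 CPM. All 3 tested had a negative log2 fold change, 2 of them at an unadjusted edgeR p under 0.05, against 22.7% of all tested genes. None of the 3 was called, against 7.02%. Sums for Kupffer cells (197 to 271 against 159 to 274 CPM), stellate cells (378 to 514 against 305 to 549.7 CPM) and lymphocytes (6.27 to 11.5 against 6.61 to 9.80 CPM) overlapped, with 0 of 20 tested genes called. Erythroid markers summed to 555 to 722 CPM in WT and 429.9 to 1457.2 CPM in SCADD. All 5 tested had a positive log2 fold change. Alas2 alone was called, or 20.0% against 7.02% of all tested genes, and it rose. In SCADD replicate 2, Alas2 was at its highest of all libraries, 129.8 CPM, whereas Hbb-bs was at its lowest, 246.8 CPM. No marker of these lists was at 0 in every library, and the part of endothelial and bile duct cells in the Oxct1 difference was not tested.

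Aacs, the cytosolic synthetase that returns acetoacetate to lipid synthesis, had the largest positive log2 fold change of the 33, 1.06 (SE 0.46), and did not pass (edgeR adjusted p = 0.238). It stood at 4.67, 4.33 and 9.84 CPM in WT and at 7.18, 20.2 and 11.9 CPM in SCADD. WT replicate 3 lay above SCADD replicate 1, and SCADD replicate 2 was far above the rest. Without that library the log2 fold change was 0.58 (edgeR adjusted p = 0.495). Values of Aacs, Bdh1 and Slc16a1 in each library were chosen for printing after they were seen.

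Oxct1 and Aacs mark the ends of the range of fold changes, and their upstream sequences are shown for that reason. Each is the RefSeq window on GRCm38.p6, plus strand, up to the base before the earliest annotated transcript start, in lower case with matches to the NRF1 core motif in capitals.
Oxct1, chr15:4026178-4026382: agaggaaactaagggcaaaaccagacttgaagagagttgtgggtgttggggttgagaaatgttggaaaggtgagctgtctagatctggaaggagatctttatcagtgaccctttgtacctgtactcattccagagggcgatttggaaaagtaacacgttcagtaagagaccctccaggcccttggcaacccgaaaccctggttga
Aacs, chr5:125475623-125475813: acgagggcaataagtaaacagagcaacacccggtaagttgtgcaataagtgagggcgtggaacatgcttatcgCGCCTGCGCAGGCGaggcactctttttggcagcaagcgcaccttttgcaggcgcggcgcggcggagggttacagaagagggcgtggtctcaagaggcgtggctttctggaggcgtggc

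Windows from 250 bases before each start were searched on both strands for 3 motifs bound by general factors of housekeeping and mitochondrial genes, and 29 of 34 members had 1 or more windows, 37 in all (Acat1, Dbt, Mmadhc, Mut and Slc16a7 are named only). The NRF1 core CGCANGCG was present in 5 of the 37 member windows, or 13.5%, against 6.76% of all 32851 windows. Those 5 belonged to Aacs, Hibadh, Mmaa, Pccb and Sucla2, none of which was called by edgeR, while DESeq2 called Aacs. In Aacs 2 matches, 1 on each strand, overlap in the capital letters. CCAAT was present in 18 member windows, or 48.6%, against 33.9% of all windows, and the GC box GGGCGG also in 18, against 32.7% of all windows. Base composition differed too, with a median of 56.4% G and C in member windows against 52.4% in all windows. The printed Oxct1 window held none of the 3 motifs.

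Ketone bodies, lactate and pyruvate cross membranes through monocarboxylate transporters. Slc16a1, the main such transporter of hepatocytes, stood at 91.9, 84.7 and 48.9 CPM in WT and at 164, 95.4 and 109 CPM in SCADD. The groups did not overlap, though SCADD replicate 2 was close to WT replicate 1, and the log2 fold change was 0.71 (edgeR adjusted p = 0.149, SE 0.27). Slc16a7, a high-affinity relative, stood at 90.3, 122 and 88.1 CPM in WT and at 135, 169.6 and 119 CPM in SCADD. Here SCADD replicate 3 lay below WT replicate 2, with a log2 fold change of 0.49 (edgeR adjusted p = 0.131, SE 0.18). Without SCADD replicate 3 the Slc16a7 edgeR adjusted p was 0.0406.

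**Figure D2:**
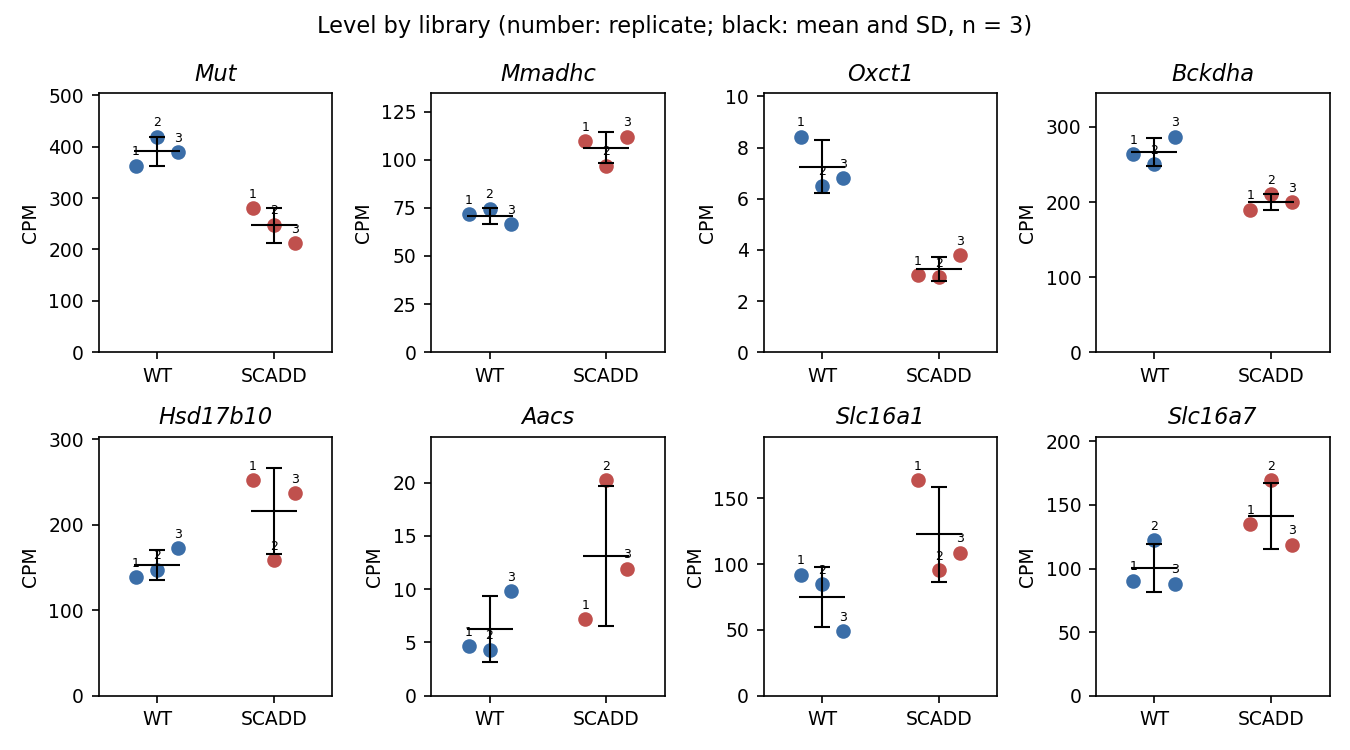
CPM of 8 genes in each library (points, numbered by replicate; vertical axes start at 0), WT in blue and SCADD in red, with mean and SD in black (n = 3 per group). In Mut, Mmadhc, Oxct1, Bckdha and Slc16a1 the groups do not overlap, whereas in Hsd17b10, Aacs and Slc16a7 at least 1 SCADD library lies among the WT libraries.

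Slc16a7 also differed between groups in the estimated length of its transcripts. RSEM's mean transcript length for it was 3161, 3049 and 3123 bases in WT and 3490.0, 3537 and 3638 bases in SCADD, 14.3% longer with no overlap. No test was run on lengths. Among the 34 genes, 27 differed by under 5% in mean length between groups, and in 2 genes the groups did not overlap, the other being Ppm1k at 5.50% shorter in SCADD. Lengths were not compared over all genes, so no share over all genes stands beside these counts. In Oxct1, WT replicate 1 had a mean length of 2348 bases against 3270 to 3527 bases in the other 5 libraries.

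Partner genes whose products work together or in opposition were compared as ratios of TPM, RSEM's transcript abundance relative to the library, within each library. The exact two-sided permutation test of 6 such ratios could not go below p = 0.1, and p-values were adjusted over the 6. Bckdha to Bckdhb, the 2 chains of the decarboxylase, stood at 3.72, 3.38 and 3.62 in WT and at 2.57, 2.44 and 2.59 in SCADD. The ratio was lower in all 3 SCADD libraries, by a mean log2 difference of -0.50 (exact permutation p = 0.1, adjusted 0.2). Mccc1 to Mccc2 stood at 0.861, 1.06 and 0.929 in WT and at 0.686, 0.703 and 0.709 in SCADD, again without overlap (log2 difference -0.44, exact permutation p = 0.1, adjusted 0.2). From the counts in CPM, these 2 differences were -0.52 and -0.32. By CPM, however, the Mccc1 to Mccc2 ratio overlapped between groups. Mccc1 and Mccc2 were at 62.7 and 65.7 CPM in WT replicate 1, and at 66.1 and 68.1 CPM in SCADD replicate 2. The ratio was thus higher in that SCADD library than in that WT library. Bdh1 to Oxct1, a maker and a user of ketone bodies, stood at 63.5, 114 and 124 in WT and at 250.5, 329 and 223 in SCADD. The groups did not overlap (log2 difference 1.45, exact permutation p = 0.1, adjusted 0.2), and Oxct1 itself was one of the genes called above.

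The remaining ratios overlapped between groups. Bckdk to Ppm1k stood at 0.166, 0.179 and 0.176 in WT and at 0.207, 0.153 and 0.137 in SCADD (exact permutation p = 0.7, adjusted 0.84). Suclg2 to Sucla2 stood at 0.373, 0.346 and 0.335 in WT and at 0.387, 0.528 and 0.266 in SCADD (exact permutation p = 0.7, adjusted 0.84). In both, the SCADD libraries were more widely spread than the WT libraries. Pcca to Pccb was between 0.596 and 0.917 in all 6 libraries (exact permutation p = 1, adjusted 1).

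**Figure D3:**
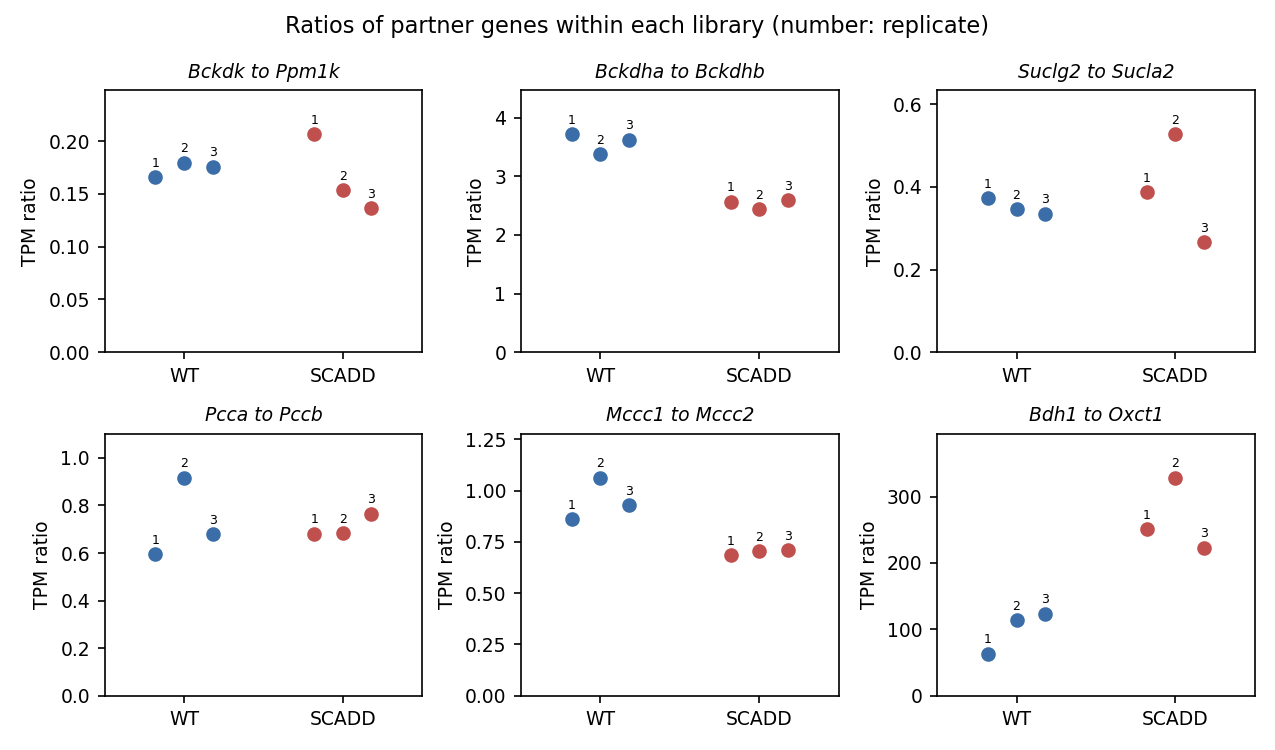
Ratio of TPM between partner genes within each library (points, numbered by replicate; vertical axes start at 0). SCADD points lie below all WT points for Bckdha to Bckdhb and Mccc1 to Mccc2, above them for Bdh1 to Oxct1, on both sides of them for Bckdk to Ppm1k and Suclg2 to Sucla2, and within their range for Pcca to Pccb.

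Levels were compared between genes per length, as TPM. The 33 tested genes spanned 393-fold in mean TPM. Of all 34 members, 10 were above 100 TPM and 9 below 10 TPM, the untested Bcat1 among the latter. Acat1 was the most abundant, at 702 TPM in WT and 647 TPM in SCADD, and supplied 23.8% ± 2.10 of the members' summed TPM (SD, n = 6). Bdh1 followed at 227 TPM in WT and 251 TPM in SCADD. In the transaminase step Bcat2 was at 6.98 TPM in WT, against 139.7 TPM for Bckdha in the complex that follows. The kinase Bckdk was at 4.39 TPM and the phosphatase Ppm1k at 25.5 TPM in WT. Among propionate genes Mcee was at 165 TPM and Mut at 118 TPM in WT, and in SCADD Mut was at 72.1 TPM. Oxct1 was the lowest tested gene in SCADD, at 2.50 TPM in WT and 0.937 TPM in SCADD, far below Acat1 in both groups.

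TPM of a gene also depends on what else fills the library. Mup genes, which encode major urinary proteins, took 3.23% to 4.16% of all TPM in WT libraries and 7.37%, 8.52% and 14.8% in SCADD replicates 1 to 3. SCADD replicate 3 gave the lowest TPM in 23 of 33 members but the lowest CPM in 11. The share of all tested genes that were lowest in this library was not computed for either measure. The part of the Mup genes was not tested.

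**Figure D4:**
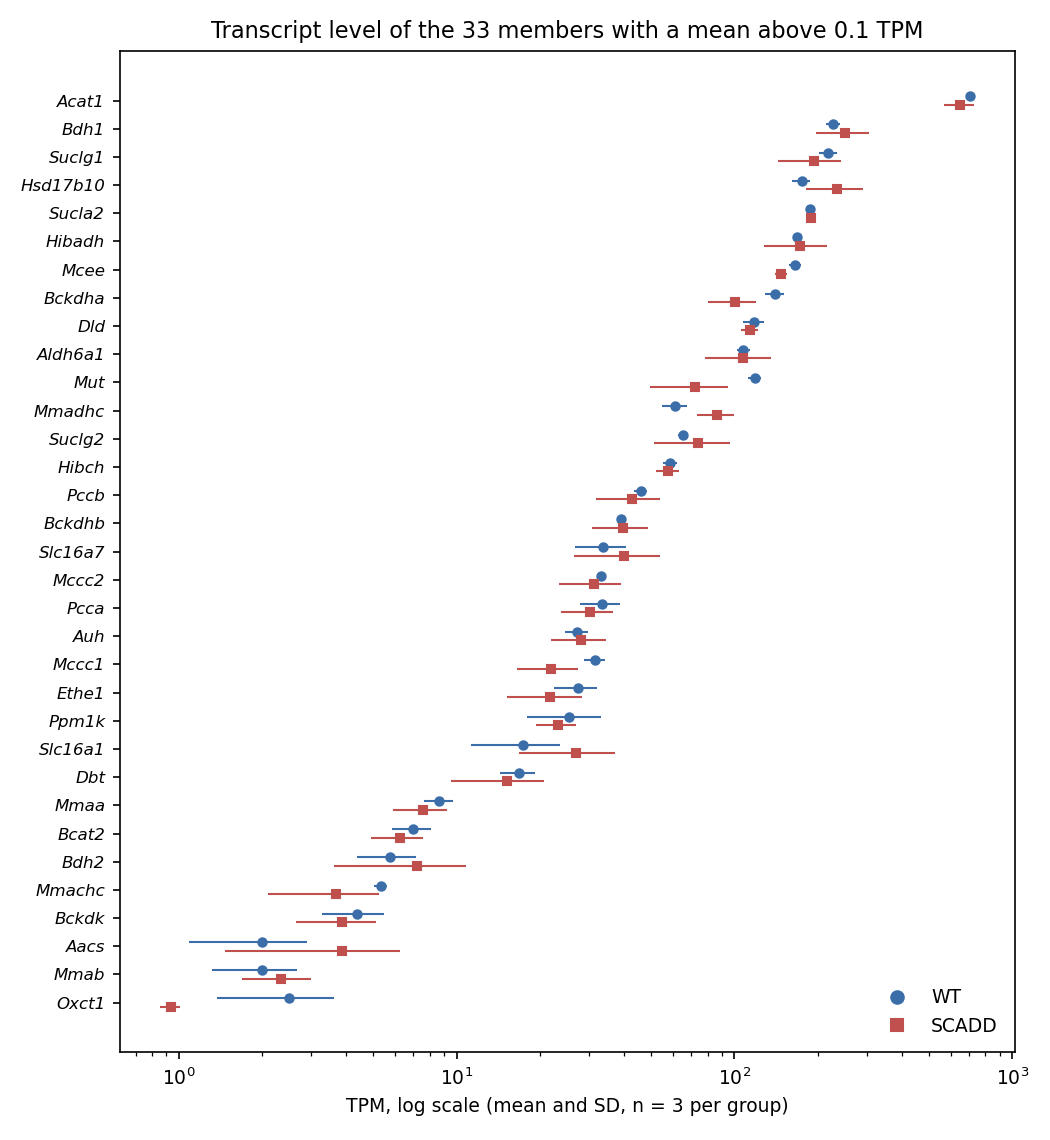
Mean TPM of the 33 tested genes on a log axis, with SD (bars, n = 3 per group), WT as blue circles and SCADD as red squares, sorted by level. Acat1 leads at 702 and 647 TPM, and Oxct1 is last, at 2.50 and 0.937 TPM.

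Libraries of 1 group also differed among themselves. The SCADD libraries spread wider than the WT libraries in 23 of 33 genes, or 69.7%, against 61.4% of all tested genes. The median ratio of highest to lowest CPM was 1.29 in SCADD and 1.199 in WT. As log2 these medians were 0.37 and 0.26, against 0.47 and 0.35 over all tested genes. SCADD replicate 2 held the highest CPM of all 6 libraries for 11 genes, and SCADD replicate 3 the lowest for 11. In some genes these 2 libraries stood at opposite ends. Shares over all tested genes were not computed for these counts. Hibch, Mcee, Sucla2 and Acat1 (4 genes) were highest in SCADD replicate 3 and lowest in replicate 2. Bckdhb, Dbt, Mccc2 and Suclg2 (4 genes) were highest in replicate 2 and lowest in replicate 3. Of the genes within 1 Mb of Mut, Mmadhc and Oxct1, 1, 4 and 6 were tested. Of these, 0 were called by edgeR, against 7.02% of all tested genes, and with so few genes this count carries little weight.

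Beyond the 34, a wider list of 61 genes of the same pathways held 55 tested genes. Of these, 2 rose and 2 fell, which is 7.27% against 7.02% of all tested genes. The largest difference was in Acss3, a mitochondrial synthetase that activates propionate and other short acids. It stood at 23.8, 30.4 and 23.6 CPM in WT and at 81.3, 63.6 and 69.9 CPM in SCADD, all far above WT (log2 fold change 1.47, edgeR adjusted p = 0.000357, SE 0.15). Slc43a1, a carrier of large neutral amino acids including the branched-chain ones, stood at 4.20, 3.19 and 6.38 CPM in WT and at 1.71, 2.26 and 2.05 CPM in SCADD. It was lower in all SCADD libraries (log2 fold change -1.20, edgeR adjusted p = 0.0268, SE 0.28), and not called without WT replicate 3 or SCADD replicate 1 (edgeR adjusted p = 0.102 in each case).

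In a list of 18 genes of the citric acid cycle and of other users of Dld, 1 rose and 1 fell. Together these were 11.1%, against 7.02% of all tested genes. Cs, citrate synthase, stood at 41.6, 32.5 and 36.2 CPM in WT and at 54.0, 52.7 and 51.8 CPM in SCADD (log2 fold change 0.52, edgeR adjusted p = 0.0374, SE 0.13). Fh1, fumarate hydratase, stood at 445, 538 and 528 CPM in WT and at 300.2, 259 and 372 CPM in SCADD (log2 fold change -0.70, edgeR adjusted p = 0.0385, SE 0.18). Neither gene's groups overlapped. Both calls were lost without SCADD replicate 1 or 2 or WT replicate 2 or 3, with edgeR adjusted p of 0.146, 0.0559, 0.166 and 0.132 for Cs and of 0.132, 0.0698, 0.159 and 0.131 for Fh1. The Cs call was also lost with upper-quartile scaling (edgeR adjusted p = 0.0592).

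Other ketone body genes gave 0 calls among 7 tested by edgeR, 2 at an unadjusted p under 0.05 and 1 call by DESeq2, where 22.7% and 9.56% of all genes reached these marks. Slc16a6, a transporter that exports ketone bodies from liver, had the lowest p of the 7 (log2 fold change -0.83, edgeR adjusted p = 0.0843, SE 0.26). Sulfide genes gave 0 edgeR calls among 6, with 2 at an unadjusted p under 0.05 and 1 call by DESeq2, against the same 22.7% and 9.56%. Among them Cth, cystathionine gamma-lyase, had the lowest p (log2 fold change -0.61, edgeR adjusted p = 0.113, SE 0.21). Tcn2, the cobalamin carrier of plasma, was just outside the threshold and was picked out after its values were seen. It stood at 22.1, 20.9 and 23.9 CPM in WT and at 37.2, 54.2 and 26.7 CPM in SCADD, without overlap (log2 fold change 0.82, edgeR adjusted p = 0.0504, SE 0.22, DESeq2 adjusted p = 0.00953).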

How the data were processed

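RNA of frozen liver was sequenced as poly(A) libraries (Quick-RNA and NEBNext kits, per the labels' protocols). The submitters' processing notes name STAR 2.7.6a, RSEM 1.3.3 and GRCm38. Which gene annotation was used is not given in the sources used here. The authors deposited whole-number STAR counts per gene, not normalised. They also deposited RSEM expected counts and TPM, scaled by the authors' RSEM run for length and library size. The deposited FPKM values were not used. Deposited RSEM transcript lengths were read as other values.

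Column 4 of the STAR tables, which held 96.8% to 97.3% of stranded reads, was used without its summary rows. Of 55487 identifiers 55227 matched GENCODE M21, which gave symbols and coordinates. Genes passing filterByExpr (minimum count 10) entered edgeR 4.0.16 (R 4.3.3) with TMM scaling and a robust quasi-likelihood test in which group was the single term. Benjamini-Hochberg adjustment covered 13498 genes, with 0.05 as the threshold. As an approximation, SE was taken as the size of the log2 fold change over the root of F. It was 0.126 to 0.462 over the members, with a median of 0.159. The biological coefficient of variation was 17.6%. Alternatives included DESeq2 1.42.0 and limma-voom (limma 3.58.1). The test was checked on simulated data.

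Values in every library are given for called members, for the member with the lowest p in each role group without a call, and for the member with the highest TPM in each group. Part of what the naming rule takes from the wider lists is not reported here. Members and lists were chosen with earlier results of these data known. Sequences come from RefSeq (GRCm38.p6).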

Additional observations from a re-analysis of the deposited data

How the results depend on the processing

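Over 15 alternatives, 460 of 495 member results kept their direction and side of the threshold. Mut and Mmadhc lost their call in 8, each time with 1 library left out. Aacs, Bckdha, Hsd17b10, Slc16a1 and Slc16a7 passed in 7. The sign of 13 members that were not called turned in 20. Without a filter 5 members were called (3 higher), with Slc16a1 and Slc16a7 at an adjusted p of 0.000629 and 0.0444. DESeq2 called 5 (2 higher). Leaving out 1 library gave 1 to 4 members called, 0 to 2 higher and 1 to 2 lower. Genes called overall numbered 1702 without a filter (950 higher, 752 lower) and 395 to 1590 with 1 library left out (240 to 909 higher, 155 to 681 lower). Other pathway genes called numbered 7 with DESeq2, 8 without a filter and 1 to 8 with 1 library left out. Upper-quartile scaling turned Dld to -0.0297 and Aldh6a1 to -0.0076. The cause of these changes was not tested.

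With 1 library left out, log2 fold changes of members that crossed zero ranged from -0.29 to 0.0214 (Dbt), -0.0876 to 0.0873 (Dld), -0.27 to 0.12 (Ppm1k), -0.12 to 0.0324 (Mccc2), -0.19 to 0.21 (Hibch), -0.0417 to 0.14 (Hibadh) and -0.0789 to 0.0935 (Aldh6a1). They ranged from -0.16 to 0.0273 (Pcca), -0.27 to 0.0513 (Mcee), -0.20 to 0.0034 (Mmaa), -0.0750 to 0.21 (Sucla2), -0.17 to 0.37 (Bdh2) and -0.14 to 0.0764 (Acat1). Log2 ratio differences ranged from -0.26 to 0.0365 (Bckdk to Ppm1k), -0.13 to 0.36 (Suclg2 to Sucla2) and -0.16 to 0.16 (Pcca to Pccb, and 0.0025 from CPM).

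Same-numbered libraries had deviation correlations of 0.0606, 0.0372 and 0.107, and 4 of 6 correlated best with their own number. Whether replicate numbers pair the libraries was not tested. With the replicate number as a block, 4 members were called (2 higher), among them Slc16a1 (adjusted p = 0.0346).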
